A study of Mus musculus with 6 samples.

Results

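The genes described here build, hold back and release the sterol regulatory element binding proteins (SREBPs), together with Stard4, a sterol carrier. They are Srebf1 and Srebf2, Scap, Insig1 and Insig2, Mbtps1 and Mbtps2, and Stard4, found by symbol in the count table. All 8 were found, among 54838 genes in the table, and all 8 had enough reads to be tested. RNA was sequenced from B16F10 cells, a pigmented mouse melanoma line, in 3 libraries of cells treated with GSK126 at 10 µM and 3 libraries of cells given DMSO, the vehicle. GSK126 inhibits EZH2, the histone methyltransferase of Polycomb repressive complex 2. The groups were taken from the sample titles, because the DMSO samples carry the same treatment text as the GSK126 samples. The labels give no further genotype or allele, no treatment time, and nothing that says each replicate was its own culture. The p-values therefore rest on the scatter among these libraries, and that scatter may be technical.

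SREBPs are transcription factors made as precursors in the membrane of the endoplasmic reticulum (ER). When ER sterol is low, SCAP escorts the precursor to the Golgi, where the site-1 protease (Mbtps1) and then the site-2 protease (Mbtps2) cut it and free the part that enters the nucleus. When sterol is high, an INSIG protein holds SCAP in the ER. The SREBP-2 protein is best known for switching on sterol synthesis and uptake genes and SREBP-1 for fatty acid synthesis genes, and several regulators in this loop, Srebf2 and Insig1 among them, are known SREBP targets themselves. The counts measure transcripts, and neither cleavage nor protein was measured.

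In these cells GSK126 went with more transcript of both SREBP factors, both INSIG genes and Stard4, while the escort and the proteases did not pass the test. Of the 8 genes, 5 rose, 0 fell and 3 did not pass at an adjusted p below 0.05 (quasi-likelihood test of edgeR, adjusted over all 13601 tested genes by Benjamini and Hochberg), where 5.87% of all tested genes were called higher and 5.18% lower. At an unadjusted p below 0.05 there were 6 higher and 0 lower, where 14.4% of all tested genes were higher and 13.1% lower. DESeq2 and limma-voom each called 5 higher and 0 lower, against 6.13% higher and 4.97% lower of all genes by DESeq2 and 5.73% higher and 5.13% lower by limma-voom. The median log2 fold change of the 8 genes, GSK126 over DMSO, was 0.28, against -0.00048 over all tested genes. The changes were small, from 1.21-fold for Srebf1 to 1.51-fold for Stard4 among the 5 that rose. Only Srebf2 and Stard4 of these 5 kept an adjusted p below 0.05 whichever of the 6 libraries was left out. The genes among the 8 called higher were then 3, 3 and 4 without GSK126 replicates 1, 2 and 3, where 2.69%, 3.08% and 4.64% of all tested genes were called higher, and 3 each without DMSO replicates 1, 2 and 3, where the shares were 2.02%, 2.19% and 2.62%. With no filter on low counts 3 of the 8 were called higher, against 1.98% of all genes. In RNA from bulk cultures, fewer cells that express a gene and less of its RNA per cell cannot be told apart.

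The libraries held between 14250457 and 14713373 counts with GSK126 and between 13594939 and 14072673 with DMSO. GSK126 replicate 3 scored 17.3 on principal component 2 (18.6% of variance), far from the -10.7 and -11.6 of GSK126 replicates 1 and 2. Ezh2, whose product the drug inhibits, had a mean of 193 ± 3.47 CPM (read counts scaled to a common library size) with GSK126 and 189 ± 4.84 CPM with DMSO (SD, n = 3 each). All 7 markers of the melanocyte lineage (Mitf, Sox10, Pmel, Mlana, Tyr, Tyrp1 and Dct) exceeded 5 CPM, and 4 of them rose and 1 fell. Their summed level ran from 22772 to 23944 CPM with GSK126 and from 21369 to 22574 CPM with DMSO. Leukocyte markers summed to at most 1.12 CPM in any library, endothelial markers to at most 0.698 CPM and keratinocyte markers to at most 0.142 CPM, with Cd3e, Itgam, Adgre1, Cdh5, Kdr, Tek, Krt5, Krt1 and Krt10 at 0 reads throughout. The 4 fibroblast markers summed to between 16.9 and 21.8 CPM with GSK126 and between 22.5 and 25.0 CPM with DMSO, most of it Col1a2, and their part in the results was not tested.

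A promoter window of each of 4 genes that rose is shown, the one with the most sterol element, E-box and CCAAT matches where a gene has several, because these are letters by which SREBP targets and the usual partner factors are recognised. The sequences are RefSeq windows on GRCm38.p6, 250 bases before to 50 after an annotated start, read along the gene's strand. Capitals mark TCACNCCA and TCACCCNA, forms of the sterol regulatory element that overlap where they read TCACCCCA, and the E-box CACGTG and the CCAAT box, which is ATTGG on the opposite strand. Both strands were searched.
Srebf2 (chr15:82147019-82147318, plus strand): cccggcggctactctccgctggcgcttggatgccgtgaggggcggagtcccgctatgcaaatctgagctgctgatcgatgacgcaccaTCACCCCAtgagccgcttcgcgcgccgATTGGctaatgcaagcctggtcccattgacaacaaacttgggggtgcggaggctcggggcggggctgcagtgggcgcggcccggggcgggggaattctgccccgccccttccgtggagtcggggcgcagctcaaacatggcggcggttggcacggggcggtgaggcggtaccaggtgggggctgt
Srebf1, window 3 of 3 (chr11:60210422-60210721, minus strand): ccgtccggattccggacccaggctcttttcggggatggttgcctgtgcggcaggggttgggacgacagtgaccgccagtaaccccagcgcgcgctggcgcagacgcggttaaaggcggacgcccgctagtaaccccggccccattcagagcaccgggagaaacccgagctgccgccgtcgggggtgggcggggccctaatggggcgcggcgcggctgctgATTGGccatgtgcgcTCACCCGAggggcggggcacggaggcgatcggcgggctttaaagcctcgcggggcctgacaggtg
Insig1 (chr5:28071162-28071461, plus strand): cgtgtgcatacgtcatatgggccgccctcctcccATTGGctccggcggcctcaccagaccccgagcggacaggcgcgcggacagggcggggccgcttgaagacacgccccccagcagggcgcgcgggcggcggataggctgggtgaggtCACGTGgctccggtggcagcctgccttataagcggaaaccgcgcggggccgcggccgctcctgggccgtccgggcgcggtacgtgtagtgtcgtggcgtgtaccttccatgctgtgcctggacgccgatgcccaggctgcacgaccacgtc
Insig2, window 1 of 3 (chr1:121332540-121332839, minus strand): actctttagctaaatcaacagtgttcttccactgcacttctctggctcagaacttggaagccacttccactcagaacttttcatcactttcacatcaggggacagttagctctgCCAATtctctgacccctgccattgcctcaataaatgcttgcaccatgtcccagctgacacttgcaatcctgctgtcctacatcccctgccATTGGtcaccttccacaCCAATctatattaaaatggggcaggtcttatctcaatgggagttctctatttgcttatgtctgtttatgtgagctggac

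Counted from the start, the Srebf2 window holds TCACCCCA at -162 and ATTGG at -135. The Srebf1 window holds ATTGG at -30 and TCACCCGA at -15. The Insig1 window holds ATTGG at -216, CACGTG between it and the start, and neither form of the sterol element. Insig2 window 1 holds CCAAT at -136 and -29 and ATTGG at -46, with neither form of the sterol element. Srebf1 window 1, not shown, holds CCAAT at -166, and neither window 1 nor window 2 of Srebf1 holds a sterol element of these forms. The GC box GGGCGG, the site of Sp1, was found on either strand 5 times in the Srebf2 window, 2 times in the Srebf1 window shown, 3 times in the Insig1 window and 0 times in the Insig2 window shown. Promoter windows were read for 7 of the 8 genes, 12 windows in all. Windows on chromosome 18, where Stard4 lies, were set aside for the 8 genes, so none of Stard4 was read. That step was not applied to the shares over all windows. No window of Scap, Insig2, Mbtps1 or Mbtps2 holds a sterol element of these forms. Both windows of Scap hold CACGTG. Over all 32851 windows of mouse genes, 4.36% hold TCACNCCA, 3.75% hold TCACCCNA, 7.15% hold CACGTG, 37.4% hold CCAAT and 35.7% hold GGGCGG on either strand. TCACCCNA was added after the sequences were seen. These matches are letters in a window, and binding was not measured. The counts are per gene, so which of the 3 Srebf1 starts was used cannot be told.

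Srebf2, which encodes SREBP-2, lies on GRCm38 chromosome 15 from 82147181 to 82205379. It had 4346, 4668 and 4308 reads in GSK126 replicates 1 to 3, against 3065, 3094 and 3131 reads in DMSO replicates 1 to 3. Scaled for library size, these were 303, 317 and 300.4 CPM with GSK126 and 225, 220.1 and 232 CPM with DMSO. The groups were well apart, the lowest GSK126 library standing above the highest DMSO library, as was the case for 17.6% of all tested genes. It rose by 0.44 on the log2 scale (SE 0.04, edgeR adjusted p = 0.00165), or 1.36-fold with a 95% interval from 1.27 to 1.46. It ran from 0.42 to 0.46 when single libraries were left out, with an adjusted p of at most 0.0154.

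Srebf1 encodes SREBP-1 and lies on chromosome 11 from 60199089 to 60222581. It had 689, 733 and 687 reads with GSK126 and 537, 591 and 520 reads with DMSO. In CPM the GSK126 libraries had 48.1, 49.8 and 47.9 and the DMSO libraries 39.5, 42.0 and 38.5, so the groups did not overlap. On the log2 scale Srebf1 rose by 0.28 (SE 0.06, edgeR adjusted p = 0.0344), or 1.21-fold with a 95% interval from 1.10 to 1.35. The call ended whichever library was left out, at adjusted p values from 0.0519 without GSK126 replicate 3 to 0.110 without DMSO replicate 3, while its size stayed between 0.25 and 0.32 on the log2 scale. Srebf1 shares 109 bp of exons with Rai1 on the opposite strand. Rai1 had more reads than Srebf1 in each of the 6 libraries and a difference of -0.23 on the log2 scale (SE 0.14, edgeR adjusted p = 0.323), and the counting is not stated to use strand, so part of the Srebf1 reads is uncertain. Summed counts of Srebf1, Rai1 and Mir6922 gave -0.026 on the log2 scale (edgeR adjusted p = 0.884), a sum in which Rai1 has most of the reads, so it does not show how many reads were shared.

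**Figure D1:**
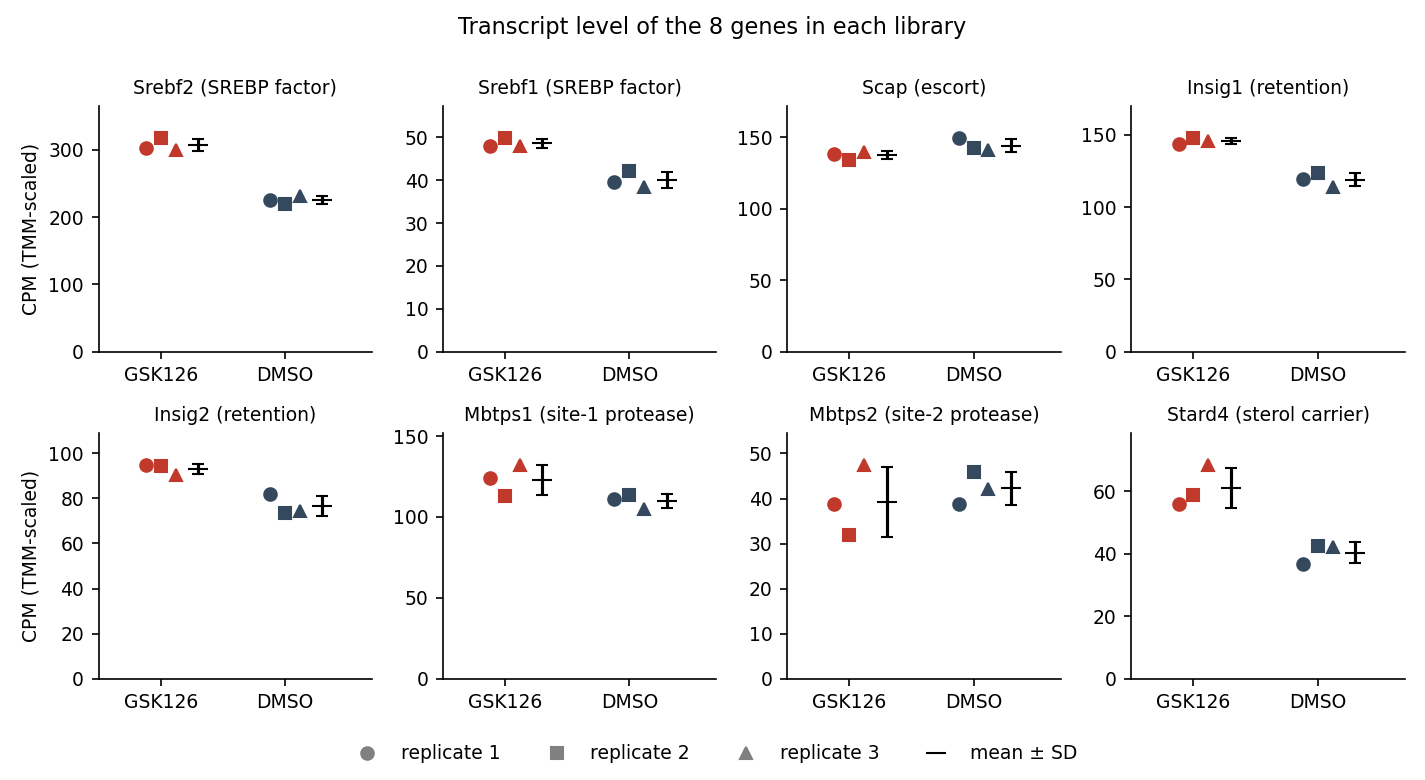
Transcript level of each of the 8 genes in CPM, from 0, with GSK126 libraries on the left and DMSO libraries on the right of each panel; symbols mark the replicate number and the bar at the side of each group is the mean ± SD of 3 libraries. For Srebf2, Srebf1, Insig1, Insig2 and Stard4 every GSK126 library lies above every DMSO library; for Mbtps1 and Mbtps2 the groups overlap.

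The escort gene Scap (chromosome 9, 110333288 to 110384950) was not among the genes that rose. It had 1980, 1973 and 2003 reads with GSK126 and 2031, 2002 and 1898 reads with DMSO. In CPM these were 138, 134 and 139.7 with GSK126 and 149, 142 and 141 with DMSO. The GSK126 libraries all lay just below the DMSO libraries, which was so for 16.8% of all tested genes. Its log2 fold change of -0.07 (SE 0.05) did not pass the test (adjusted p = 0.373 by edgeR), with a 95% interval from 0.885-fold to 1.03-fold. Scap shares 985 bp of exons with 5830462I19Rik, which had 1 read in all 6 libraries together.

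Insig1 and Insig2 encode the proteins that keep SCAP in the ER. Insig1 (chromosome 5, 28071363 to 28078662) had 2061, 2173 and 2092 reads with GSK126 and 1626, 1738 and 1539 reads with DMSO. That is 144, 148 and 146 CPM with GSK126 against 119.5, 124 and 114 CPM with DMSO, again without overlap. Its log2 fold change was 0.29 (SE 0.05, edgeR adjusted p = 0.0116), or 1.22-fold with a 95% interval from 1.13 to 1.32. Leaving out DMSO replicate 1 ended the call, at an adjusted p of 0.0558, with the fold change on the log2 scale still 0.29.

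Insig2 (chromosome 1, 121304353 to 121332589) had 1354, 1384 and 1294 reads with GSK126 and 1111, 1034 and 1002 reads with DMSO. Scaled, the GSK126 libraries had 94.5, 94.1 and 90.2 CPM and the DMSO libraries 81.7, 73.6 and 74.2 CPM. The groups did not overlap, DMSO replicate 1 being the highest of its group. The log2 fold change was 0.28 (SE 0.06, edgeR adjusted p = 0.0271), or 1.22-fold with a 95% interval from 1.10 to 1.34. The call was lost without GSK126 replicate 1 or 2 or DMSO replicate 2 or 3, the adjusted p reaching 0.102, and held without GSK126 replicate 3 or DMSO replicate 1.

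Mbtps1, the site-1 protease gene (chromosome 8, 119508156 to 119558735), had 1774, 1663 and 1891 reads with GSK126 and 1508, 1600 and 1420 reads with DMSO. In CPM it had 124, 113 and 132 with GSK126 against 111, 114 and 105 with DMSO, so GSK126 replicate 2 fell within the DMSO range. The log2 fold change of 0.16 (SE 0.07) did not pass (adjusted p = 0.175 by edgeR). Its 95% interval, 0.0031 to 0.32 on the log2 scale, includes the values of Srebf1, Insig1 and Insig2.

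Mbtps2, the site-2 protease gene (chromosome X, 157535371 to 157598715), varied most between replicates. It had 555, 469 and 679 reads with GSK126 and 527, 646 and 567 reads with DMSO. The 38.7, 31.9 and 47.3 CPM of the GSK126 libraries spanned the whole range of the DMSO libraries, which had 38.7, 46.0 and 42.0 CPM. The log2 fold change was -0.10 (SE 0.14, edgeR adjusted p = 0.686), with a 95% interval from 0.737-fold to 1.18-fold. It was -0.26 without GSK126 replicate 3 and 0.03 without GSK126 replicate 2, neither past the test. The gene Yy2, which encodes a zinc finger transcription factor, lies within Mbtps2 on the same strand and shares 2867 bp of exons with it. Yy2 had 126, 67 and 44 reads with GSK126 and 50, 59 and 33 reads with DMSO, and how many of the reads of either gene came from the other was not tested.

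Stard4 encodes a small protein that carries cholesterol between membranes within the cell and is a known SREBP-2 target. It lies on chromosome 18 from 33199355 to 33213862. It had 799, 865 and 978 reads with GSK126 and 498, 596 and 568 reads with DMSO, or 55.8, 58.8 and 68.2 CPM with GSK126 and 36.6, 42.4 and 42.1 CPM with DMSO. The groups did not overlap, GSK126 replicate 3 being the highest and DMSO replicate 1 the lowest. The log2 fold change of 0.59 (SE 0.10, edgeR adjusted p = 0.0123) was the largest of the 8, above 95.5% of all tested genes. As a fold it was 1.51, with a 95% interval from 1.29 to 1.77. Without GSK126 replicate 3 it was 0.50 and without DMSO replicate 1 it was 0.53, and the adjusted p reached 0.0491 at the most.

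**Figure D2:**
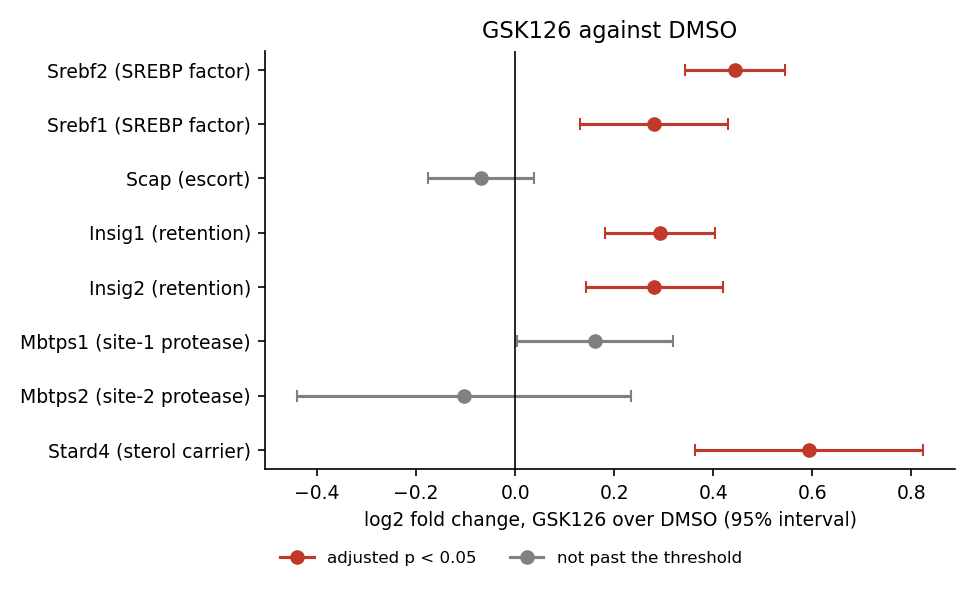
Log2 fold change of each gene, GSK126 over DMSO, with its 95% interval from the edgeR fit of 3 against 3 libraries; red marks an adjusted p below 0.05. Srebf2 at 0.44 and Stard4 at 0.59 lie highest, Srebf1, Insig1 and Insig2 lie together at 0.28 to 0.29, and the intervals of Scap and Mbtps2 include 0.

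**Figure D3:**
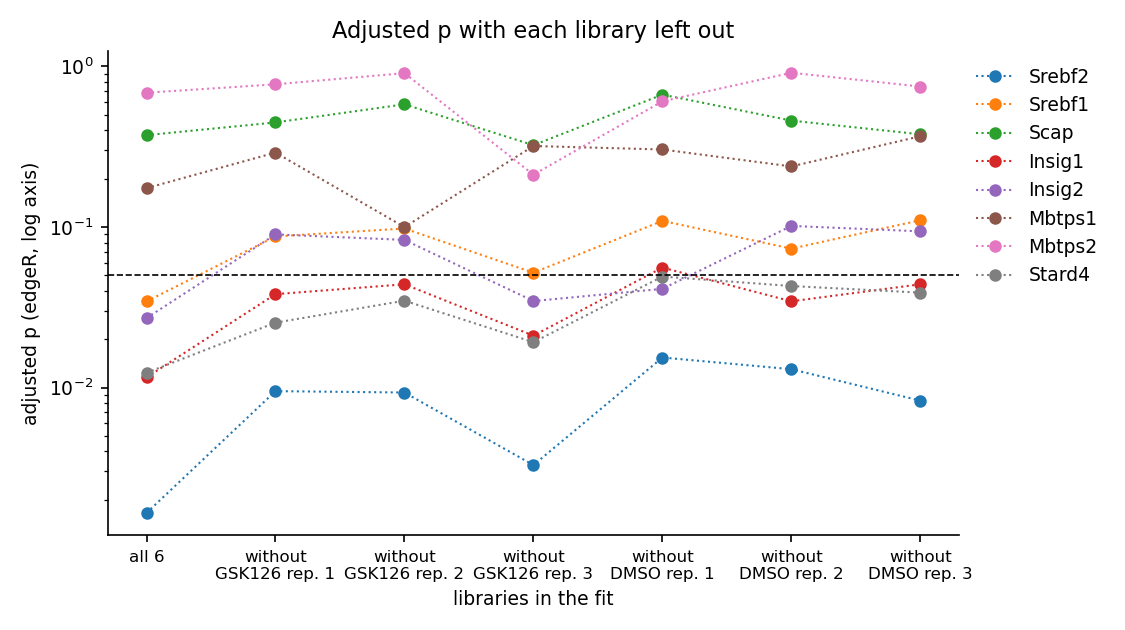
Adjusted p of each gene (edgeR, logarithmic axis) with all 6 libraries and with each library left out in turn; the dashed line is the threshold of 0.05 and dotted lines only join the points of a gene. Srebf2 and Stard4 stay below the threshold throughout, whereas Srebf1 rises above it in each smaller fit.

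Levels of different genes were compared with the authors' FPKM values, which scale for a transcript length that is not given. It is not the length of the GENCODE M21 exons, counted once where they overlap. Insig1 and Insig2 have 3093 and 3473 bp of such exons and averaged 132 and 84.7 CPM, but 38.3 and 11.2 FPKM. The order below is therefore one of FPKM, and another length could change it. Over the 6 libraries Insig1 had the highest FPKM of the 8 genes, at a mean of 38.3 FPKM (range 32.8 to 42.8). Srebf2 followed at 22.7 FPKM (18.8 to 27.1) and Scap at 15.8 FPKM (15.1 to 16.8), and their ranges did not overlap with each other or with that of Insig1. Insig2 at 11.2 FPKM, Mbtps1 at 9.37 FPKM and Stard4 at 7.45 FPKM came next, and each overlapped its neighbour in this order, as Stard4 did with Srebf1. Srebf1 had 4.81 FPKM (4.16 to 5.41), and Mbtps2 had the lowest value at 2.67 FPKM (2.09 to 3.09).

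**Figure D4:**
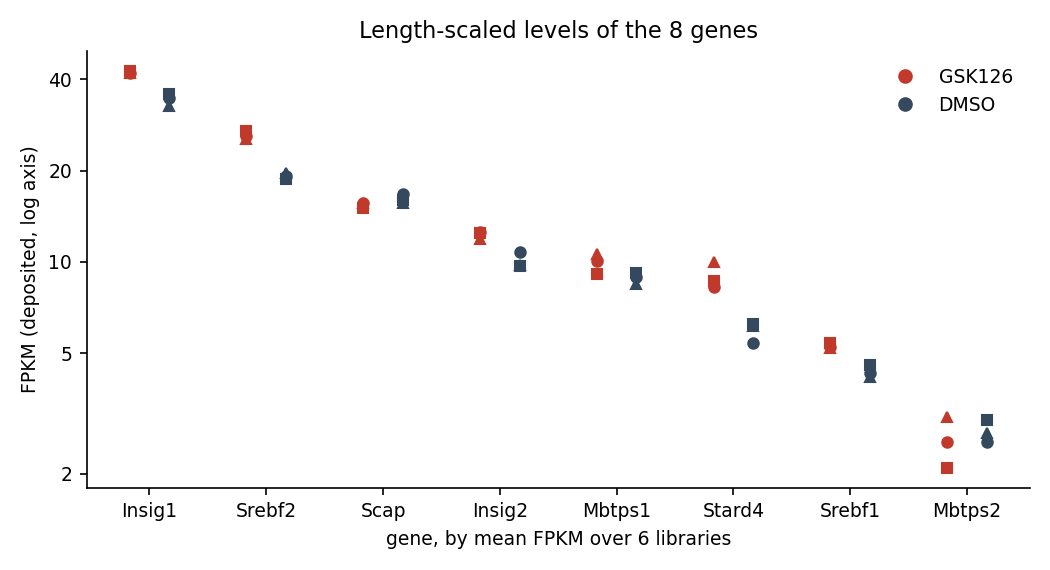
Deposited FPKM of the 8 genes on a logarithmic axis, ordered by the mean over 6 libraries, with GSK126 libraries (red) to the left of DMSO libraries (dark) for each gene. In FPKM, whose transcript lengths are not given, Insig1, Srebf2 and Scap form a descending top 3 with ranges apart, and Mbtps2 is lowest.

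Within each library the paralogues were set against each other in FPKM. The size of each ratio rests on the lengths behind the FPKM values. The difference between the groups does not, and was the same with CPM to the digits given. Srebf2 exceeded Srebf1 by a ratio of 4.96, 5.00 and 4.93 with GSK126 and of 4.48, 4.11 and 4.73 with DMSO. The GSK126 ratios were all higher, by 0.16 on the log2 scale, and the exact two-sided permutation test gave p = 0.1 (adjusted p = 0.3 over the 3 ratios), the smallest p that 3 against 3 libraries allow, so none of these ratios could pass 0.05. The FPKM ratio of Insig1 to Insig2 was 3.33, 3.44 and 3.54 with GSK126 and 3.21, 3.68 and 3.36 with DMSO. The difference between the groups was 0.01 on the log2 scale (exact permutation p = 0.9, adjusted p = 0.9), within the spread of the replicates. The ratio of Mbtps1 to Mbtps2 was 3.93, 4.36 and 3.43 with GSK126 and 3.52, 3.05 and 3.08 with DMSO, a log2 difference of 0.28 (exact permutation p = 0.2, adjusted p = 0.3).

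The other genes of the pathway were counted by their place in it, and each count stands against the shares of all tested genes given above. Upstream, among genes that hold, ubiquitinate or extract SCAP, INSIG and SREBP in the ER, 0 of 18 tested genes rose and 0 fell, with a median log2 fold change of 0.01. At an unadjusted p below 0.05 there were 1 higher and 0 lower, and DESeq2 and limma-voom called 0. Of all tested genes 5.87% were called higher and 5.18% lower, so 0 of 18 is near those shares. Vcp, the ATPase that pulls proteins out of the ER membrane and the gene of this list with the most reads, differed by 0.02 ± 0.05 on the log2 scale (SE, edgeR adjusted p = 0.768). Of 7 other tested substrates of the site-1 or site-2 protease, 1 rose and 0 fell (1 higher and 2 lower at an unadjusted p below 0.05; DESeq2 and limma-voom called 1 higher and 0 lower), and the median was -0.13. This 1 gene is 14.3% of the list, against 5.87% of all tested genes called higher. The GSK126 libraries lay wholly above the DMSO libraries for 1 of the 7 genes and wholly below for 4. Of all tested genes 17.6% lay wholly above and 16.8% wholly below. The gene that rose was Atf6, an ER stress sensor, with 207.1, 207.4 and 252 CPM with GSK126 and 171, 172 and 171 CPM with DMSO (log2 fold change 0.37 ± 0.08 SE, edgeR adjusted p = 0.0279). GSK126 replicate 3 was the highest of these, and the Atf6 call ended without any 1 of the DMSO libraries, at up to 0.0949.

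Downstream, the enzymes of sterol synthesis that SREBP-2 is known to drive rose in 16 of 19 tested genes and fell in 0 (18 higher and 0 lower at an unadjusted p below 0.05; DESeq2 17 and 0, limma-voom 15 and 0), with a median log2 fold change of 0.69. Nsdhl, a sterol dehydrogenase, had 51.9, 53.6 and 56.4 CPM with GSK126 and 31.5, 27.8 and 26.7 CPM with DMSO (log2 fold change 0.91 ± 0.08 SE, edgeR adjusted p = 0.00134). Mvd, which makes isopentenyl diphosphate, had 32.7, 36.7 and 32.6 CPM with GSK126 and 14.7, 16.9 and 21.6 CPM with DMSO (0.94, SE 0.14). Pmvk, the kinase acting before Mvd, and Tm7sf2, a sterol reductase, had log2 fold changes of 0.93 (SE 0.19) and 1.34 (SE 0.30). The Pmvk call was lost in 3 and the Tm7sf2 call in 5 of the 6 smaller fits, with adjusted p up to 0.0943 for Pmvk and 0.105 for Tm7sf2, and Tm7sf2 shares 532 bp of exons with Vps51 on the same strand.

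Among enzymes of fatty acid and lipid synthesis that SREBP-1 is known to drive, 7 of 15 tested genes rose and 0 fell (11 higher and 1 lower at an unadjusted p below 0.05; DESeq2 8 and 0, limma-voom 7 and 0), with a median of 0.38. Scd1, the stearoyl-CoA desaturase, had 136, 149 and 144 CPM with GSK126 and 75.5, 83.9 and 88.4 CPM with DMSO (log2 fold change 0.80, SE 0.07). Fads2, another desaturase, had 0.62 (SE 0.07), malic enzyme 1 (Me1) 0.60 (SE 0.06), and Acss2, which makes acetyl-CoA from acetate, 0.67 (SE 0.09). Acss2 shares exons with Ggt7 and Gss on the opposite strand, 197 and 395 bp, so part of its reads is uncertain. Fasn, the fatty acid synthase and a classic SREBP-1 target named here after its value was seen, did not pass (0.24, SE 0.06, adjusted p = 0.0539 by edgeR).

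Beside Stard4, 2 of 21 tested sterol carriers rose and 0 fell (7 higher and 0 lower at an unadjusted p below 0.05; DESeq2 and limma-voom 2 and 0), with a median of 0.15. By the adjusted p that is 9.52% of the list, near the 5.87% of all tested genes called higher. By the unadjusted p, 7 of 21 is above the 14.4% of all tested genes that were higher. Npc1, which exports cholesterol from lysosomes, had 154, 150.2 and 159.95 CPM with GSK126 and 126, 127 and 122 CPM with DMSO (log2 fold change 0.30 ± 0.05 SE, edgeR adjusted p = 0.00868). Npc1 shares 511 bp of exons with Rmc1. Vps13a, a lipid bridge protein between membranes, changed by 0.25 ± 0.06 on the log2 scale (SE, edgeR adjusted p = 0.0345), a call that ended whichever library was left out, at up to 0.115. The relatives Stard3 and Stard5 had log2 fold changes of 0.13 (SE 0.10) and -0.18 (SE 0.11), neither past the test, and were named after their values were seen.

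Of 14 tested genes of lipoprotein receptors and their adaptors, 3 rose and 0 fell (4 higher and 2 lower at an unadjusted p below 0.05; DESeq2 and limma-voom 3 and 0), and the median was 0.06. These 3 genes are 21.4% of the list, against 5.87% of all tested genes called higher. Sort1, a sorting receptor of the Golgi, had 663, 678 and 725 CPM with GSK126 and 553, 564 and 556 CPM with DMSO (log2 fold change 0.30 ± 0.04 SE, edgeR adjusted p = 0.00783). Lrp1, a large endocytic receptor, changed by 0.34 ± 0.06 on the log2 scale (SE, edgeR adjusted p = 0.0154), and its call ended without GSK126 replicate 1 or DMSO replicate 1 or 2, at up to 0.0593. Mylip, a ubiquitin ligase that sends lipoprotein receptors to degradation, changed by 0.58 ± 0.12 on the same scale (SE, edgeR adjusted p = 0.0237), and its call ended without GSK126 replicate 1 or 2 or DMSO replicate 1 or 2, at up to 0.0847.

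**Figure D5:**
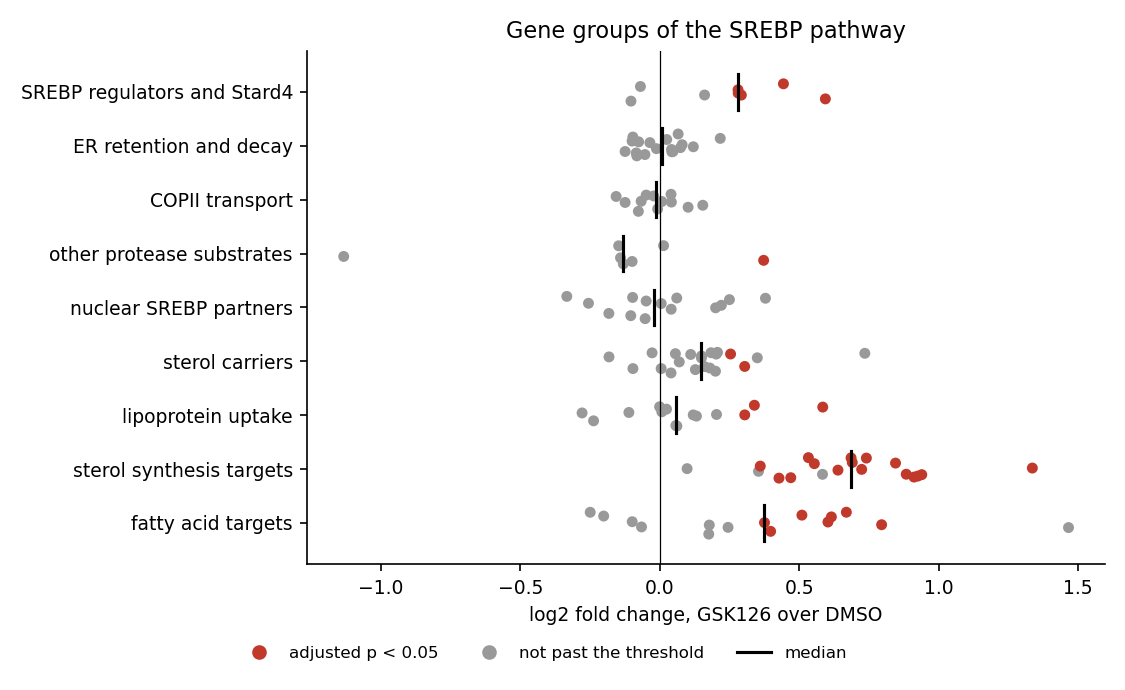
Log2 fold change, GSK126 over DMSO, of every tested gene in each group of the pathway; red points have an adjusted p below 0.05 over all 13601 tested genes and black bars are medians. The sterol synthesis targets lie farthest to the right with a median of 0.69, the SREBP regulators and Stard4 have a median of 0.28, and the ER retention and COPII transport groups have no red point.

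Each SREBP factor was compared with 9970 other tested genes with at least 5 CPM on average, leaving out clone names, predicted genes and pseudogenes. Those whose log2 CPM followed Srebf2 most closely over the 6 libraries were Spp1, Acsl3 and Kif18b (Pearson r of 0.997, 0.997 and 0.996). For Srebf1 they were Rab1b, Arntl and Kif4 (r of 0.998, 0.996 and 0.995). The points are 3 libraries of each group, so the difference between the groups enters every r. Of these 9970 genes, 325 and 148 had an r above 0.95 with Srebf2 and Srebf1. Spp1, which encodes osteopontin, had 24.7 CPM with GSK126 and 6.91 CPM with DMSO on average. Acsl3 and Kif4 share 244 and 832 bp of exons with Utp14b and Pdzd11.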

How the data were processed

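The submitters' processing notes name CASAVA 1.8, HISAT2 and the builds GRCm38.p4 and mm10, with no role for each. How reads were counted, with which annotation and strand setting, was not given in the sources used here. Each library came with whole-number counts per gene as deposited, and a joint table held the authors' FPKM values, per the file headers. Within a gene the FPKM values were proportional to the counts over the library total, to within a ratio of 1.000048 over 12035 genes, so they are the same measurement. A symbol with several identifiers stayed with the identifier with the most reads.

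Counts were fitted in R 4.3.3 with edgeR 4.0.16 (filterByExpr, TMM, glmQLFit and glmQLFTest, group as the only term), with limma 3.58.1 and DESeq2 1.42.0 as alternatives. P-values were Benjamini-Hochberg adjusted over 13601 genes with a threshold of 0.05. SEs come from the F statistic, and CPM use TMM-scaled totals (factors 0.994 to 1.01). The fit was also run on simulated counts, whose changes were larger than those of most of the 8 genes. Ratios were tested by exact permutation with scipy 1.17.1. Exon sharing was read from GENCODE M21, whose positions of the 8 genes equal those of the files. Replicates differed by more than counting noise (chi-square 7.12 to 13.3 times its degrees of freedom).

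The members and lists were chosen with earlier results of these data known. Besides the 8 members, the text names up to 4 called genes of each list, taken by size of change, or its gene with the most reads where none was called, the 3 genes most like each SREBP factor, Ezh2, and partners that share exons.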

Additional observations from a re-analysis of the deposited data

How the results depend on the processing

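Of the 8 genes, Srebf2 and Stard4 kept their direction and side of the threshold under all the alternatives run, and Scap and Mbtps1 kept theirs, without passing. Without a filter on low counts (23352 genes tested), 899 genes were called, 463 higher and 436 lower, and Srebf1 (log2 fold change 0.28, adjusted p = 0.0581) and Insig2 (0.28, adjusted p = 0.0569) no longer passed in edgeR. Counts of Srebf1 summed with Rai1 and Mir6922, which share exons with it, gave -0.026 (adjusted p = 0.884), Rai1 contributing most of the reads. Left-out libraries gave 529 to 1243 genes called, 279 to 640 higher and 250 to 603 lower. Log2 fold changes then ran from 0.25 to 0.32 for Srebf1, 0.26 to 0.32 for Insig1, 0.25 to 0.33 for Insig2 and -0.26 to 0.027 for Mbtps2, and the log2 difference of the Insig1 to Insig2 ratio from -0.034 to 0.066. Left-out libraries gave 0 to 1 protease substrates, 1 to 2 sterol carriers and 1 to 3 lipoprotein uptake genes called higher. Sterol synthesis genes called higher were 12 to 14 in these fits and 12 without the filter on low counts, against 16 in the main fit.

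The replicate block gave 408 of 13601 genes called, 230 higher and 178 lower, and Srebf1 (0.28, adjusted p = 0.0968), Insig1 (0.29, adjusted p = 0.0592) and Insig2 (0.28, adjusted p = 0.0803) did not pass, nor did any protease substrate (0) or sterol carrier (0). Deviations of same-numbered samples from their group means correlated with r of 0.07, 0.02 and -0.04. Those of samples with different numbers had r from -0.10 to 0.08. The labels do not say whether same-numbered samples were handled together, and these correlations cannot decide it. Protease substrates called higher were 0 without the filter, and sterol carriers called higher were 1 without the filter and 1 with either FPKM pseudocount, where 1 protease substrate was called lower. Other causes were not tested. The 3 libraries per group limit all intervals.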

Other observations

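Genes that carry SCAP and SREBP out of the ER, and genes that act with SREBP in the nucleus, form 2 short lists, and with 11.1% of all tested genes called in either direction a count of 0 in either list is near that share. Of 12 tested genes of the COPII coat and its GTPases, 0 rose and 0 fell by edgeR, DESeq2 or limma-voom, with 0 higher and 2 lower at an unadjusted p below 0.05. Sec13, the gene of this list with the most reads, had 138 ± 5.77 CPM with GSK126 and 151 ± 1.72 CPM with DMSO (SD, n = 3 each; log2 fold change -0.12 ± 0.05 SE, edgeR adjusted p = 0.140). Of 14 tested nuclear cofactors and modifiers of SREBP, 0 rose and 0 fell by edgeR, DESeq2 or limma-voom, with 2 higher and 0 lower at an unadjusted p below 0.05. Sp1, a factor that binds GC boxes and the gene of this list with the most reads, had 207 ± 17.9 CPM with GSK126 and 198 ± 4.80 CPM with DMSO (log2 fold change 0.06 ± 0.07 SE, edgeR adjusted p = 0.599).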
